A study of Mus musculus with 8 samples.

Results

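The albumin locus of the mouse was examined for donor DNA joined to it after AAV-HITI. The locus was taken as *Alb* with 50 kb on each side, chromosome 5 from 90410870 to 90526602 in GRCm38 (mm10), a window of 115.733 kb that also holds *Afp*. All deposited intervals that overlapped this window were used. These were 5 of the 33 intervals listed for the gRNA pool and 1 of the 24 listed for the scramble pool.

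Both pools came from mice that received a pair of AAV vectors. One vector encoded *Streptococcus pyogenes* Cas9 (SpCas9) under the hybrid liver promoter, which limits the model to cutting in cells where this promoter is active. The other carried a promoterless donor with the coding sequence of the red fluorescent reporter DsRed, together with either a gRNA against exon 2 of *Alb* or a scramble gRNA designed against no mouse sequence. In the methods of the study, DsRed donors were given to newborn C57BL/6J mice through a vein, and the donor was flanked by *Alb* gRNA target sites. The pools held 5 gRNA and 3 scramble libraries of genomic DNA. The methods name liver as the tissue, while the source label of every library reads blood, and no expression data were available to check the tissue. The age of the animals at sampling is not given in the sources used here.

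Albumin is the most abundant protein of plasma, and *Alb* is transcribed at a very high level in adult hepatocytes. *Afp*, its neighbour and paralog, encodes alpha-fetoprotein, a plasma protein of the fetal liver that is silenced after birth. Both belong to a gene family with *Afm* (afamin) and *Gc* (vitamin D binding protein). In HITI, Cas9 cuts the genome and the donor at the same target sequence, and non-homologous end joining seals the donor into the break. A read that holds donor sequence and albumin sequence side by side is what such a joining would leave. Each count is 1 piece of a read that partly matched the donor insert, placed on the mouse genome. Whether each count stems from such a joining was not tested, and 20 intervals outside the window were listed with the scramble gRNA too.

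The target exon is short. In the GRCm39 annotation it holds 58 bases and carries coding bases 80 to 137 of the 1824 coding bases of *Alb*, so that 4.33% of the coding sequence lies before it. It is shown because all counts of the scramble pool in the window, and nearly all of the gRNA pool, fell in an interval that overlapped it. The *Afp* exon of the same number, 52 bases long, is shown for comparison. Capitals in the *Alb* sequence mark NGG motifs, the motif SpCas9 needs beside its target, read on either strand.
*Alb* exon 2: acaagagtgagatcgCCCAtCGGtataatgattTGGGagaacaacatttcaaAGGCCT
*Afp* exon 2: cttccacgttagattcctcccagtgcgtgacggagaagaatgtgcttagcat

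Exon 2 of *Alb* held 7 such motifs, 4 on the plus and 3 on the minus strand. SpCas9 cuts 3 bases from its motif. For these 7 motifs, the cuts would fall after bases 868 to 912 counted from the RefSeq start of *Alb*. Motifs in the flanking introns, which could also place a cut in the exon, were not searched. The motif that the gRNA used is not given in the sources used here. The exons of *Alb* and *Afp* had 34 identical bases in 65 aligned columns. The longest run of *Alb* exon 2 that was also found in *Afp* exon 2 was 6 bases, and in the whole *Afp* transcript it was 9 bases on the plus and 7 on the minus strand.

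Exons were annotated in GRCm39 and intervals in GRCm38, so both were placed by their distance from the start of the gene and no coordinate was converted. The promoter sequences of *Alb* and *Afp* each matched GRCm39 exactly once and lay 29844 bp apart in both builds. The last annotated exon of *Alb* ended at base 15733 and that of *Afp* at base 18194, the lengths of these genes in GRCm38. The sequence between these points was not compared.

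The gRNA pool held 7818 counts in the window and the scramble pool held 89. The largest gRNA interval, at exon 2, gave 7584 of them, and the 89 scramble counts all came from 1 interval at the same place. The other 4 gRNA intervals held 45 to 73 counts each. Of these, 2 lay in introns of *Alb*, 1 lay upstream of *Alb* and 1 lay at the end of *Afp*.

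**Figure D1:**
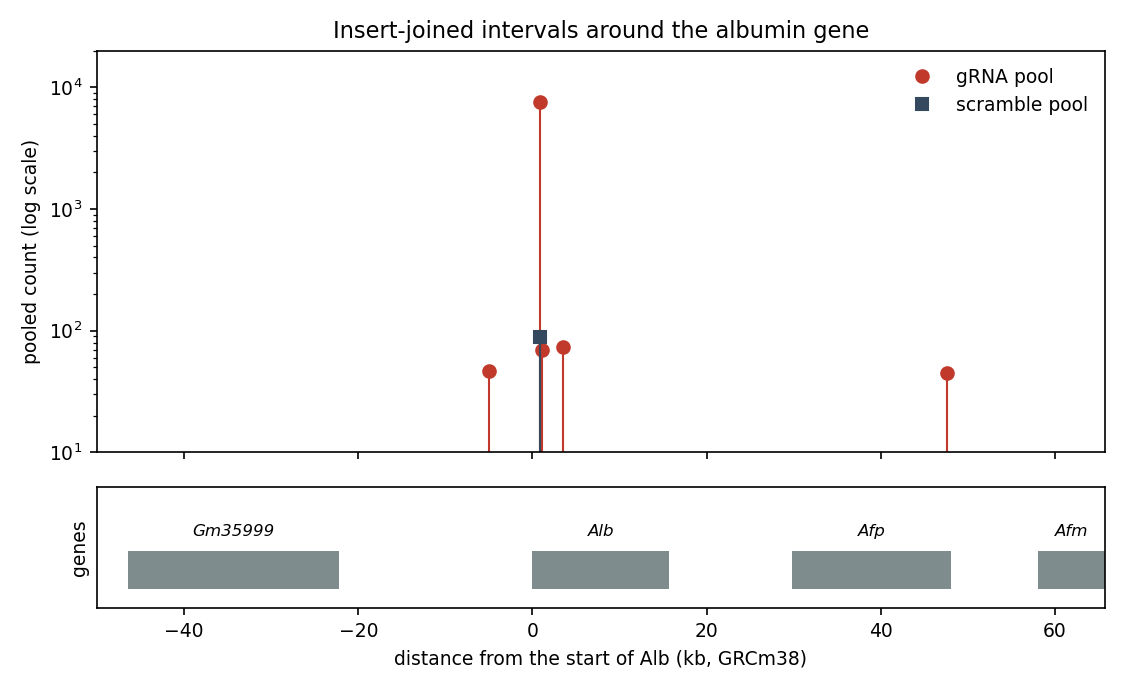
Pooled counts of the listed intervals (vertical axis, log scale) against distance from the start of *Alb* in kb, with the annotated genes of the window below. Circles stand for the gRNA pool and the square for the scramble pool; the exon 2 interval stands at 7584 gRNA and 89 scramble counts, and the other 4 gRNA intervals lie between 45 and 73.

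The largest interval of the gRNA pool ran from 90461603 to 90461779, over 177 bp. It covered bases 734 to 910 of *Alb*, that is 118 bases before exon 2, all 58 bases of the exon and 1 base of intron 2. It was second in its pool by count and held 13.04% of the pool's counts (95% Wilson interval 12.8% to 13.3%). Within the window it held 97.0% of the gRNA counts (96.6% to 97.4%). Its span took in 6 of the 7 cut positions of the motifs within exon 2.

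The scramble interval ran from 90461650 to 90461752, over 103 bp, and covered bases 781 to 883 of *Alb*. It began 47 bp after the gRNA interval and ended 27 bp before its end. It reached over 71 bases before exon 2 and the first 32 bases of the exon, and took in 5 of these 7 cut positions. By count it was number 16 of the 24 scramble intervals and held 0.244% of the pool's counts (0.199% to 0.301%). Both intervals thus lay over the junction of intron 1 and exon 2, and the scramble interval lay wholly within the other. Counts per bp of interval were 42.8 with gRNA and 0.864 with scramble. At the other gRNA intervals of the window they ran from 1.5 to 36.5, highest at a width of 2 bp, so the measure depends on interval width. How positions were merged into intervals is not stated, so the edges were not read as the ends of aligned reads.

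**Figure D2:**
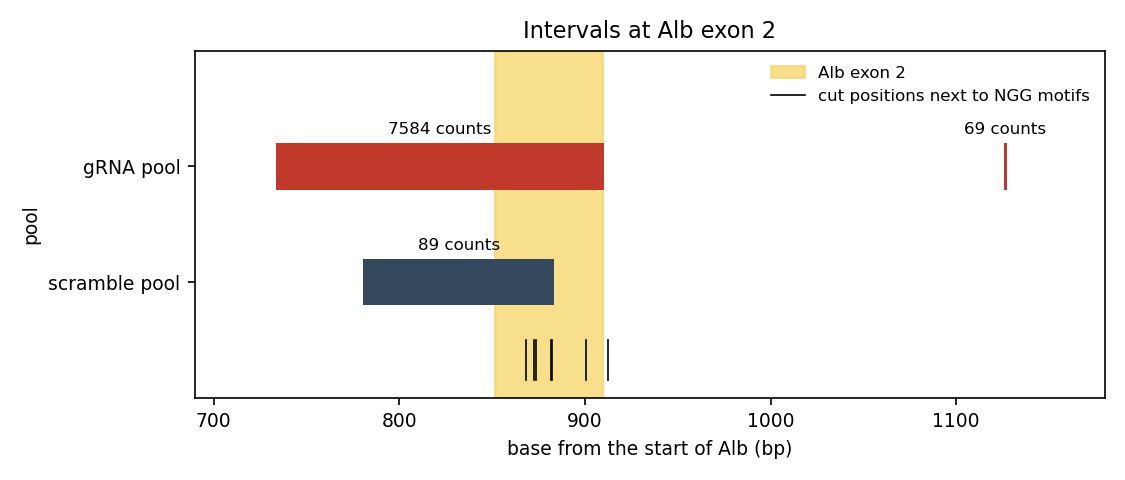
Intervals at exon 2 of *Alb*, by base from the start of the gene (horizontal axis, bp) and by pool (vertical axis). The shaded band is exon 2, and the short lines are the cut positions of the 7 motifs within it. The gRNA interval covers the band and the scramble interval covers its first 32 bases.

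The other intervals within *Alb* were listed in the gRNA pool only. The one nearer to exon 2, 69 counts at 90461995 to 90461996, lay in intron 2, 217 bp downstream of exon 2. It held 0.883% of the gRNA counts in the window (0.698% to 1.12%). The farther one, 73 counts at 90464374 to 90464375, lay in intron 4, 2596 bp downstream of exon 2, and held 0.934% (0.743% to 1.17%). Both were 2 bp wide. Their counts differed by less than counting error, since each interval holds the value of the other.

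Upstream of *Alb*, the gRNA pool held 47 counts at 90455918 to 90455919. This place was outside the RefSeq genes, 5802 bp upstream of exon 2, and again 2 bp wide. It held 0.601% of the gRNA counts in the window (0.452% to 0.798%). No interval was listed between it and the one at exon 2, over 5683 bp that include the *Alb* promoter.

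At *Afp*, the gRNA pool held 45 counts in an interval of 30 bp from 90508456 to 90508485, 46.7 kb downstream of *Alb* exon 2. It held 0.576% of the gRNA counts in the window (0.430% to 0.769%). It covered bases 17743 to 17772 of the gene, near its downstream end. Of these bases, 16 lay in the annotated coding part of exon 14 and 13 after its last coding base within that exon. The stop codon was not told apart from the 3′ UTR in these 13 bases. The remaining 1 lay in the intron that follows. Exon 14 is the last coding exon of *Afp*, so the interval did not lie at the exon that matches the *Alb* target by number. The GRCm39 annotation also places the lncRNA gene *Gm43449* over this stretch on the opposite strand, and the counts carry no strand. The scramble pool listed no interval in *Afp*. The 44080 bp between intron 4 of *Alb* and this interval held no listed interval in either pool, nor did the lncRNA gene *Gm35999* or the part of *Afm* within the window.

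Away from exon 2 the gRNA counts were 69, 73, 47 and 45 from the nearest interval to the farthest, and a trend with distance was not tested. Within 10 kb of the exon lay 99.4% of the counts of the window (95% Wilson interval 99.2% to 99.6%), most of them in the exon 2 interval. The capture probes of the study enriched the albumin locus as well as the donor and AAV sequences, and where the probes ended is not given in the sources used here. The part of the probes in where counts were listed was not tested.

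The small gRNA intervals were then set against the scramble pool. The scramble pool had 0 of its 89 window counts outside the exon 2 interval, and the gRNA pool had 234 of 7818, or 2.99% (2.64% to 3.39%). Within the *Alb* gene alone the gRNA share was 1.84%. At the share of the whole window, 2.66 scramble counts would be expected, fewer than the 32 of the weakest listed scramble interval, so the listed 0 does not show that the pools differ. If the ratio of the pools at exon 2 held for the small intervals too, each would have 0.528 to 0.857 scramble counts. If they followed the ratio of the shared intervals elsewhere in the genome, 32.6 to 52.9 counts would be expected, above the weakest listed interval. Which ratio applied to them was not tested, and any count minimum of the tables is not stated.

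Of the 5 gRNA intervals in the window, 4 had no overlapping scramble interval. Over all 33 gRNA intervals, 36.4% had none. The 12 intervals listed with gRNA only held 34 to 77 counts each, and 11 of them were 2 or 3 bp wide. The 4 in the window made up 33.3% of these 12 intervals and 36.9% of their 634 counts. With 1 pool a group this is a description. On the remainder of chromosome 5 the gRNA pool listed 2 intervals and the scramble pool 1.

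The pools were then compared over the whole window. It held 13.4% of the gRNA counts (95% Wilson interval 13.2% to 13.7%) and 0.244% of the scramble counts, a difference of 13.2 percentage points (Fisher's exact test, two-sided, log10 p of -1569). The counts of a pool have no replicates, reads of 1 molecule are not independent, and intervals and p-values cover counting error alone. The test therefore compares the pools and not the mice. When each interval was counted once in place of its reads, 15.2% against 4.17% of the intervals fell in the window, and the difference no longer passed the test (log10 p of -0.415).

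Per library, the window held 1564 counts with gRNA and 29.7 with scramble, 52.7 times as many. The intervals outside the window that both pools listed were used as a measure of depth away from the target. There the gRNA pool had 9984 counts per library and the scramble pool 12068, a ratio of 0.827. The pooled ratio was 87.8 in the window and 1.38 over these 20 intervals, so that the window stood 63.7 times above them (conditional odds ratio, exact 95% interval 51.7 to 79.5). The single ratios of the 20 intervals ran from 0.900 to 1.61. The methods also count reads covering the target site, with more in gRNA-treated than in scramble-treated livers. Depth at the target may thus differ from that of the shared intervals, and the window was not set against those reads. Of the 21 intervals listed in both pools, 4.76% had a ratio above 10, which was the exon 2 interval alone. The largest interval outside the window, on chromosome 2 from 31643992 to 31644144 with gRNA and to 31644145 with scramble, held 8399 and 5515 counts. It was 1.11 times the exon 2 interval with gRNA and 62.0 times with scramble.

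Pieces with insert sequence were placed on the AAV genome in bins of 20 bp, and these counts cannot be assigned to a locus. They summed to 39638 with gRNA and 1050 with scramble, a ratio of 37.8. This lay between the 87.8 of the albumin window and the 1.38 of the shared intervals outside it. The window ratio was 2.33 times the AAV ratio (1.87 to 2.93, an interval that is too narrow, since bins share pieces). The scramble pool had 34.7 genomic counts for each AAV bin count, and the gRNA pool had 1.47. For each count in the albumin window, there were 11.8 AAV bin counts with scramble and 5.07 with gRNA. By the methods, the AAV and genomic counts both come from the partly matching reads, split into pieces with and without the insert. The AAV counts are thus no separate measure of depth. How many reads gave a count to both is not stated.

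**Figure D3:**
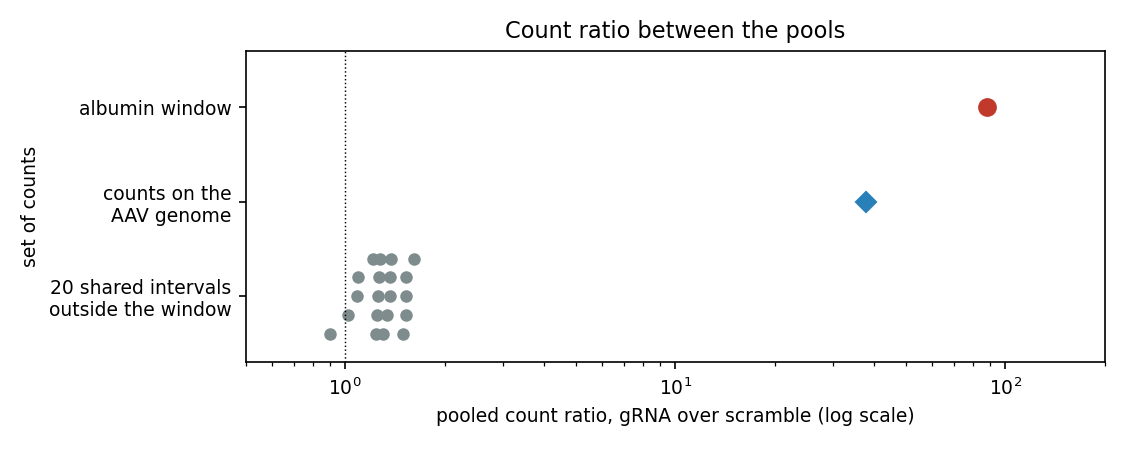
Ratio of pooled counts, gRNA over scramble (horizontal axis, log scale), for 3 sets of counts (vertical axis). Each grey point is 1 of the 20 shared intervals outside the window, with no meaning in their vertical scatter; the albumin window at 87.8 and the AAV counts at 37.8 lie far to the right of them.

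The AAV tables hold as many unnamed values per bin as each group has libraries, and each value is read here as 1 library, which the tables do not state. In the bin with the most gRNA counts, at 261 to 280, the 5 gRNA values were 184, 489, 541, 1221 and 1764. The highest was 9.59 times the lowest and gave 42.0% of the sum. The 3 scramble values there were 1, 3 and 3. In the bin with the most scramble counts, at 1221 to 1240, the scramble values were 7, 11 and 75, and the highest gave 80.6% of their sum. The 5 gRNA values in that bin were 102, 309, 419, 463 and 773. The gRNA values lay above the scramble values in both bins, as in 35.2% of the 54 bins with counts, although the values within a group spread widely. The bin at 261 to 280 was picked by its gRNA counts, which favours this order there. How evenly the libraries shared the 7818 and 89 window counts cannot be seen from the pooled tables.

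Other genes of the albumin family and of the hepatocyte secretome were looked up in both tables. Over all RefSeq genes, 0.046% held an interval with gRNA and 0.04% with scramble. Of the 4 family members, *Alb* and *Afp* held an interval with gRNA and *Alb* alone with scramble, so *Afm* and *Gc* held none. Of 18 genes of abundant hepatocyte plasma proteins, 1 held an interval with gRNA and 0 with scramble. This was *Trf*, which encodes the iron carrier transferrin. Its interval had 48 counts, was 2 bp wide, at chromosome 9 from 103208890 to 103208891, and lay 14 bp inside the downstream end of the gene. The *Afp* interval lay 422 bp from the downstream end of its gene. Apolipoprotein, fibrinogen and haptoglobin genes were among the 17 with no listed interval, and no count under 34 with gRNA or 32 with scramble was listed anywhere.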

How the data were processed

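Capture-enriched genomic DNA (SureSelect) was sequenced in paired-end runs. Per the methods and labels, reads were aligned to the donor insert with BWA-MEM, and bedtools and Picard were also used (versions not given in the sources used here). Partly matching reads were split, and the pieces outside the insert were realigned to mm10 if longer than 30 nt. The deposited values are unnormalized counts, 1 per interval and pool, or several unnamed values per 20 bp AAV bin, as many as there are libraries. Libraries were grouped by title. Starts were raised by 1. Library depth is unknown, apart from approximate numbers of reads covering the target site in the methods.

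Gene spans and promoter sequences were from RefSeq (GRCm38.p6), and exons, transcripts and exon sequences from GENCODE M39 (GRCm39). Intervals were shared if they overlapped by at least 1 bp. Tests were Fisher's exact test, two-sided, at 0.05, on pooled counts, and the conditional odds ratio. Both were checked on simulated independent counts, so the check does not cover reads that share a molecule. All intervals of the window were named. Outside it, the largest interval per pool and genes of the 2 lists that held an interval were named. The members and lists were chosen with earlier results of these data known. Alternatives varied the window, minimum count, denominator, shared overlap and start. Python 3.11.15, numpy 2.4.6, scipy 1.17.1, Biopython 1.88 and matplotlib 3.10.9 were used.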

Additional observations from a re-analysis of the deposited data

How the results depend on the processing

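Over 5 results, 18 alternatives were computed, and 14 left the call and its direction as they were or, with no test, the value; 0 were reversed. Counting each interval once gave a difference of 10.98 percentage points in the window share and lost the call, since this leaves only 33 and 24 units. The other alternatives for that share gave 12.8 to 15.4 points. With intervals within 10 kb taken as shared, 1 gRNA interval in place of 4 was listed in 1 pool only, that in *Afp*. The distance of the largest interval from exon 2 was 0 bp by its span, 1 bp from its nearest edge to the nearest exon edge and 30 bp by its midpoint. With AAV counts as the reference, chosen after the data were seen, the window stood 2.33 times higher in place of 63.7. With other choices of the shared intervals as the reference, or the largest interval alone, the value was 61.8 to 64.9. Reads covering the target site were not used as a reference, so these values do not cover a difference in depth there. No paired analysis was possible because the groups share no library number and the counts are pooled, which also prevented leaving out a library. The share of window counts outside the exon 2 interval, 2.99% with gRNA, was 1.84% within *Alb* alone (added after the data were seen). The lowest listed counts were 34 and 32, and weaker intervals were not analysed here.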

Other observations

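The interval at *Alb* exon 2 in the gRNA pool and that in *Afp* both ended 1 base after the last base of an exon, exon 2 and exon 14, by distance from the gene start. The scramble interval ended within exon 2. The distance of 1 base rests on reading each listed end as the last base of its interval. It also rests on exon distances from GRCm39, with the sequence between not compared. These positions were noticed after the data were seen, and no test was run.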
